A study of Mus musculus with 4 samples.

Results

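The nuclear genes of oxidative phosphorylation were followed in liver and white adipose tissue (WAT) of mice with and without Pnpla7, a lysophospholipase gene of the patatin family. Members were the genes whose name in the array annotation fits the subunit names Nduf (a, b, c, s or v with a number), Sdh (a to d), Uqcr, Cox (4 to 8) or Atp5, without Cox6a2, Cox7a1 and Cox8b, which are the isoforms of muscle and brown fat. The names fitted 87 genes, and without those 3 isoforms 84 members remained, of 22327 genes with a symbol on the array. They were represented by 127 probes, with 1 probe for 55 members and several for 29. The rule uses no measured value. Sdhaf1 and Sdhaf2, which are assembly factors of complex II, and Cox4nb fit by name only. Cox4nb, now named Emc8, is a subunit of the endoplasmic reticulum membrane protein complex. These 3 were counted among the members but in no complex. Atp5s and Atp5sl, now named Dmac2l and Dmac2, also fit by name and are no structural subunits, but they were counted with complex V. Ndufa4 and its homologue Ndufa4l2 were placed with complex IV, where the NDUFA4 protein is now assigned.

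The study hybridised 4 one-colour arrays, with 1 array for each of 4 groups. These were liver of Pnpla7+/+ mice (wild type), liver of Pnpla7-/- mice (knockout), WAT of Pnpla7+/+ mice and WAT of Pnpla7-/- mice, all on the C57BL/6N strain at 4 weeks of age and with no treatment named. Each array carried equal amounts of RNA pooled from 5 animals, so differences between animals cannot be seen and no test between groups can be made. The extraction protocol names livers for the WAT samples as well, and the fat depot, the sex of the animals and the deleted part of Pnpla7 are not given in the sources used here.

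Oxidative phosphorylation is carried out in the inner mitochondrial membrane. Complexes I and II pass electrons from NADH and succinate to coenzyme Q, complex III passes them to cytochrome c and complex IV to oxygen, and the protons pumped by complexes I, III and IV drive ATP synthesis by complex V. Most subunits are encoded in the nucleus and a small set in mitochondrial DNA. White adipocytes hold few mitochondria, whereas hepatocytes, muscle fibres and thermogenic (brown or beige) adipocytes are rich in them.

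The promoters of these genes are known to share binding motifs for a small set of factors, and they are shown here because the members lay close together in both tissues. RefSeq promoter windows on GRCm38.p6, from 250 bases before to 50 bases after the start, matched 69 of the 84 members, with 75 promoters. The NRF1 motif, searched as GCGCA, any base and GCGC on both strands, lay in 18 of the 75 promoters (24%), against 4.6% of all 32851 promoters of the same length. The YY1 motif, AANATGGCG, lay in 13 (17.3%, against 2.38% of all), the ESRRA motif, CAAGGTCA, in 4 (5.33% against 1.56%), the GABPA motif of the ETS family, CCGGAAGT, in 5 (6.67% against 3.89%) and the SP1 motif, GGGCGG, in 31 (41.3% against 35.7%). Matches of different motifs could overlap and were counted separately. For each complex, the promoter with the most matches upstream of its start, SP1 left out, is given (in complex III Uqcr11 also had 1, and the tie went to the gene with the higher ratio in WAT), in the direction of transcription, with the matches in capitals.
Ndufb4 (chr16:37654369-37654571, - strand): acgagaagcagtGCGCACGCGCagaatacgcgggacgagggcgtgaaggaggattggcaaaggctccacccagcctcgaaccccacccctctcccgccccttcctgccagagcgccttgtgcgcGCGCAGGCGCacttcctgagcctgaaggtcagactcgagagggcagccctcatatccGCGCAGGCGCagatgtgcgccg
Sdha (chr13:74350241-74350350, - strand): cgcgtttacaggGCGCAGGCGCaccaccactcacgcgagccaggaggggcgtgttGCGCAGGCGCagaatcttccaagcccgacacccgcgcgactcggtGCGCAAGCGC
Uqcrh (chr4:116075071-116075093, - strand): ggagtatgccgcACTTCCGGcca
Cox6a1 (chr5:115349054-115349132, - strand): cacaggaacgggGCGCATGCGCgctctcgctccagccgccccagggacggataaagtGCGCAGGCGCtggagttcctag
Atp5h (chr11:115419939-115420072, - strand): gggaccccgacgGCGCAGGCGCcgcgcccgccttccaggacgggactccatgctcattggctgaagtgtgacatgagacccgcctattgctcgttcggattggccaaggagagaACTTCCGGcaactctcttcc
The windows of Ndufb4 and Sdha hold 3 NRF1 matches each and that of Cox6a1 holds 2, Atp5h has 1 NRF1 match and 1 GABPA match on the opposite strand, and Uqcrh has 1 GABPA match on the opposite strand. A match is a description of these letters and says nothing on binding. In WAT the median log2 ratio of knockout over wild type was 0.39 for the 17 measured members with an NRF1 match and 0.43 for the 51 without one. It was 0.43 for the 12 with a YY1 match and 0.42 for the 56 without, and 0.45 for the 29 with an SP1 match and 0.42 for the 39 without. For GABPA it was 0.42 with (5) and 0.42 without, and for ESRRA 0.30 with (4) and 0.42 without. For each of the 5 motifs the medians with and without a match differed by less than the error of a single ratio. That error does not measure the spread of a median, so whether the medians differ was not tested.

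Between 65.5% and 72.6% of spots were well above background on each array, and 0 were saturated. All 4 arrays shared 1 scan time. Levels are given as multiples of the array's own 75th percentile of processed signal, which serves as the unit, and ratios as log2 of the labelled knockout over wild type. The Pnpla7 probe read 9.04 units in wild-type liver, 7.98 in knockout liver, 0.739 in wild-type WAT and 0.372 in knockout WAT. This is a log2 ratio of -0.18 in liver and -0.99 in WAT. Whether the probe lies inside the deleted part is not given, so in liver it does not check the genotype, and the knockout arrays are called knockout as labelled. The scanner software's error model, with a preset multiplicative error of 0.1, gave a median error of 0.20 for a member's log2 ratio. Between different probes of a gene the ratio varied with a pooled SD of 0.198 (liver) and 0.232 (WAT) over all genes, and of 0.081 and 0.159 over the 29 members with several probes. These errors cover the array and not the animals. Of the 84 members, 82 were well above background on all 4 arrays, and Cox7b2 and Cox8c, isoforms of testis, on none.

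In WAT, transcripts of oxidative phosphorylation were higher in the knockout pool throughout the chain. The median log2 ratio over the 82 measured members was 0.42 (quartiles 0.33 and 0.52), or 1.34-fold, against 0.02 over all 16131 measured genes. The ratio lay above 0 for 80 of the 82 members, where 52.8% of all genes did, and below 0 for 2 (47.2%). At least 1.3-fold higher were 49 members, where 12.7% of all genes were, and 1 member was at least 1.3-fold lower, where 14.3% were. None was 2-fold higher (2.16% of all genes), and 1 was 2-fold lower (2.01%). The upward shift was thus broad and small for each gene. Members are bright, so 568 other genes within the interquartile range of the members' levels were set beside them. Their median was 0.16, with 411 above 0, 157 below 0, 19.4% at least 1.3-fold higher and 8.98% lower. For 79 of the 82 members the ratio was larger than its own model error, as it was for 7696 of all 16131 genes and 315 of those 568.

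The same pair of WAT arrays differed strongly in markers of other cell types. Skeletal muscle markers had a median log2 ratio of 2.89 in WAT, with 24 of the 25 measured markers past 1.3-fold upward and 22 past 2-fold, and their summed level was 9.14 units in wild-type and 79.6 in knockout WAT. On the list, 25 of 28 genes were well above background in wild-type WAT and 27 in knockout WAT, and Tnni1, a slow-fibre troponin, was not above background in either. Ckm, the muscle creatine kinase, had a log2 ratio of 4.66. Thermogenic adipocyte markers had a median of 1.63, with 12 of 17 at least 2-fold higher and a summed level of 43.1 units in wild-type and 158.4 in knockout WAT. Ucp1, the uncoupling protein of brown fat, had a log2 ratio of 3.04. Cidea and Ucp1 made up 30.2 of the thermogenic units in wild-type and 128.1 in knockout WAT, and the other 16 markers summed to 12.9 and 30.3. The lowest ratio on this list was that of Prdm16 at 0.14, and Zic1 and Ebf2 had 0.26 and 0.29. General adipocyte markers had a median of 0.10 and summed levels of 1689 and 1863 units. Of these 24 markers 4 were at least 2-fold lower and 0 at least 2-fold higher, with Npr3, the natriuretic peptide clearance receptor, at -2.92, Sncg at -2.69, Lep (leptin) at -1.99 and Tshr at -1.80. In bulk RNA, more cells of a type and more RNA per cell cannot be told apart, and the part of muscle and thermogenic cells in the members' shift was not tested.

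In liver, the members lay slightly lower in the knockout pool. The size was within the error of a single ratio, which does not measure the spread of a median. The median log2 ratio was -0.20 (quartiles -0.25 and -0.15), against -0.04 over all 15568 measured genes. It lay below 0 for 77 of 82 members, where 55.8% of all genes did. Of all members, 0 were at least 1.3-fold higher (8.79% of all genes) and 1 at least 1.3-fold lower (9.3%). At 2-fold there were 0 members in either direction (1.75% of all genes higher and 0.886% lower). The lower one was Atp5sl, a relative of the ATP synthase coupling factor B that is no subunit of the enzyme, with a log2 ratio of -0.45. For 40 of 82 members the ratio was larger than its model error, as it was for 5866 of all 15568 genes. The 630 other genes at the members' level had a median of -0.15, with 497 below 0 and 133 above 0. Of these genes 19.2% were at least 1.3-fold lower and 1.9% higher. With normexp background correction, offset 50, the members' median was -0.12 and that of all genes -0.19, so in liver the members' place relative to all genes turned. That correction also moved the share of higher genes among those at least 1.3-fold different in liver from 48.6% to 10.7%. Cell division genes were higher in the same pair of liver arrays, with a median of 1.40 and 15 of 18 at least 2-fold higher, and hepatocyte markers had a median of -0.26, with 24 of 25 below 0. The part of either in the members' values was not tested.

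**Figure D1:**
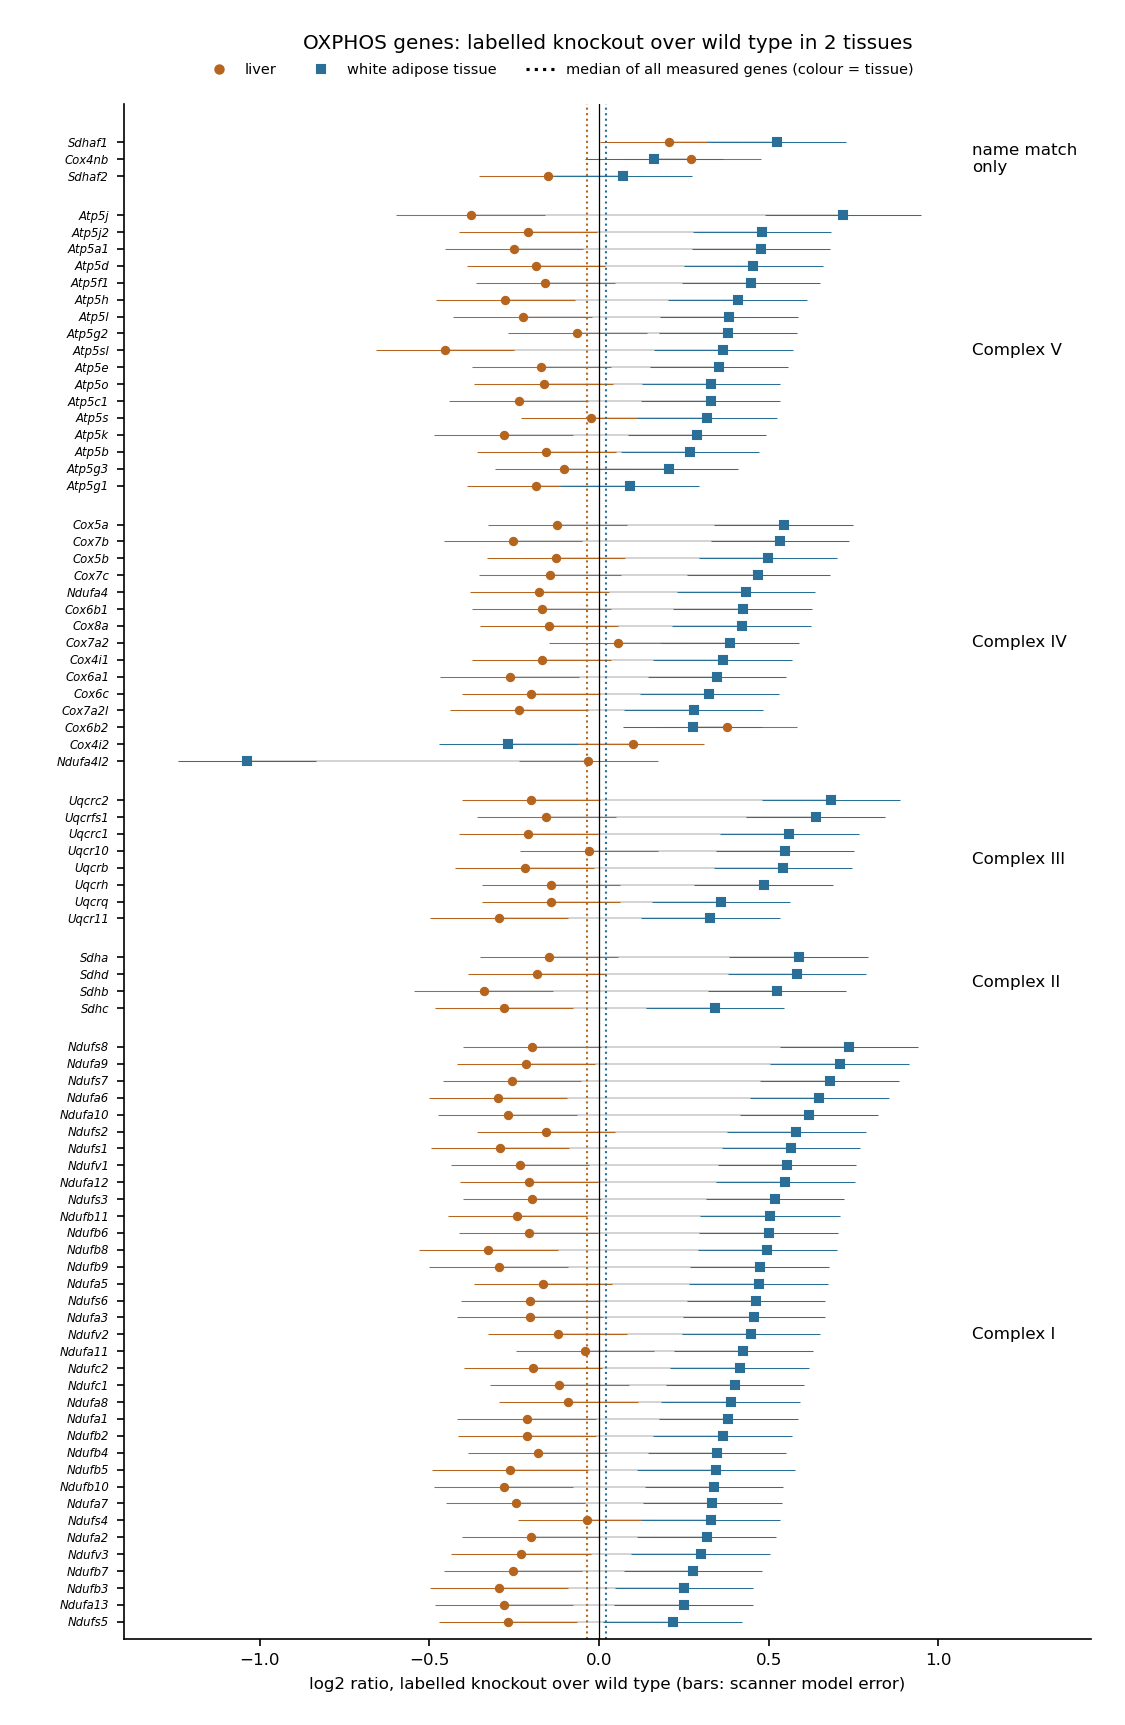
Log2 ratio of labelled knockout over wild type (horizontal axis) for each of the 82 measured members, grouped by complex, in liver (circles) and WAT (squares), with bars for the error of the scanner's model and dotted lines at the medians of all measured genes. Of the WAT values 80 lie above 0 and of the liver values 77 lie below 0, with Ndufa4l2 at -1.04 in WAT the farthest from the others.

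Complex I, the NADH dehydrogenase, was measured by 35 members. In WAT all 35 were above 0, with a median of 0.45, and 23 were at least 1.3-fold higher. The 7 core subunits, which form the arm that holds the flavin and iron-sulphur clusters, all passed 1.3-fold, with a median of 0.57. Of the 28 accessory subunits 16 did, with a median of 0.39. These medians differed by less than the error of a single ratio, which does not measure the spread of a median. Whether core and accessory subunits differ was not tested. Ndufs8, a core subunit with iron-sulphur clusters, read 6.83 units in wild-type and 5.96 in knockout liver, and 4.86 in wild-type and 8.09 in knockout WAT. Its level was thus lowest in wild-type WAT and highest in knockout WAT, and its ratios were -0.20 (liver) and 0.74 (WAT). Ndufa9, an accessory subunit at the junction of the matrix and membrane arms, read 15.5, 13.4, 11.8 and 19.4 units in the same order, a ratio of 0.71 in WAT. Ndufs7, the core subunit next to the quinone site, read 34.9, 29.2, 32.5 and 52.0 units, a ratio of 0.68 in WAT. The knockout WAT array was the highest of the 4 for all of these 3 genes. Ndufa6, an accessory subunit, followed with 0.65.

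The lowest ratios of complex I in WAT were those of Ndufs5 with 0.22 (-0.035 under quantile normalization), Ndufa13 with 0.25, Ndufb3 with 0.25 and Ndufb7 with 0.28. All are accessory subunits, and Ndufa13 is also known as GRIM-19. In liver all 35 members of complex I were below 0, with a median of -0.21 and none at 1.3-fold. The lowest there was Ndufb8, a membrane-arm subunit, with 50.1 units in wild-type and 40.0 in knockout liver, or -0.33. The accessory subunits Ndufa6, Ndufb9 and Ndufb3 followed with -0.30, -0.30 and -0.295. Closest to 0 in liver were Ndufs4, at -0.04, and Ndufa11, also at -0.04, then Ndufa8 at -0.09 and Ndufc1 at -0.12. Ndufb5 has 4 probes, of which the one at chr3:32650097-32650156 (mm9) gave 0.57 in WAT and a much dimmer one at chr3:32647763-32647822 gave -0.06. The dim probe lay 4.49 below the 75th percentile on the log2 scale in wild-type WAT.

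Complex II, the succinate dehydrogenase shared with the citric acid cycle, has 4 nuclear subunits and none from mitochondrial DNA. Sdha, the flavoprotein, read 31.3 units in wild-type and 28.3 in knockout liver, and 29.1 in wild-type and 43.7 in knockout WAT. Sdhb, the iron-sulphur subunit, read 40.1, 31.7, 26.2 and 37.6 units in that order. Both were higher in knockout than in wild-type WAT, with log2 ratios of 0.59 and 0.52, and lower in knockout than in wild-type liver, with -0.15 and -0.34. The membrane anchors Sdhd and Sdhc had ratios of 0.58 and 0.34 in WAT and of -0.18 and -0.28 in liver. The median of the complex was 0.55 in WAT, with 3 of 4 at least 1.3-fold higher, and -0.23 in liver. The assembly factors that fit the name pattern differed from the subunits in part, with Sdhaf1 at 0.21 in liver and 0.52 in WAT and Sdhaf2 at -0.15 and 0.07.

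Complex III, the cytochrome bc1 complex, was measured by 8 members, and 6 of them were at least 1.3-fold higher in WAT, with a median of 0.55. Uqcrc2, a core protein, read 41.2 units in wild-type and 35.9 in knockout liver, and 31.0 in wild-type and 49.8 in knockout WAT. Its ratio in WAT was 0.68, the highest of the complex. Uqcrfs1, the Rieske iron-sulphur protein, read 38.4, 34.5, 26.6 and 41.3 units, a ratio of 0.64 in WAT. For both, wild-type WAT was the lowest and knockout WAT the highest array in this scaling, on which the order of the wild-type tissues depends. Uqcrc1, the other core protein, had 0.56, and the small subunits Uqcr10, Uqcrb, Uqcrh, Uqcrq and Uqcr11 ran from 0.55 down to 0.33. In liver all 8 were below 0, from -0.03 for Uqcr10 to -0.29 for Uqcr11, with a median of -0.18.

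Complex IV, cytochrome c oxidase, had the widest spread among its members in WAT (SD 0.409, against 0.116 to 0.135 in the other complexes). That SD includes Ndufa4l2 at -1.04 and Cox4i2 at -0.27, whereas the 13 members above 0 ran only from 0.28 to 0.54. Several subunits of the complex exist as tissue isoforms. Of 15 measured members 13 were above 0 in WAT and 8 at least 1.3-fold higher, with a median of 0.39. In liver 12 of 15 were below 0, with a median of -0.15 that became 0.013 under quantile normalization. Cox5a, a subunit on the matrix side, read 89.6 units in wild-type and 82.3 in knockout liver, and 59.4 in wild-type and 86.7 in knockout WAT, a ratio of 0.54 in WAT. Cox7b, Cox5b and Cox7c followed with 0.53, 0.50 and 0.47. The ubiquitous isoforms Cox4i1, Cox6a1, Cox6b1, Cox7a2 and Cox8a had 0.36, 0.35, 0.42, 0.39 and 0.42 in WAT. Cox7a2 was the only one of these 5 above 0 in liver, at 0.06. Cox6c and Cox7a2l, a factor of supercomplex assembly, had 0.33 and 0.28 in WAT.

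Members below 0 in WAT were Ndufa4l2 and Cox4i2, which belong to complex IV by sequence or name and are known as hypoxia-responsive isoforms. Ndufa4l2 read 0.342 units in wild-type and 0.335 in knockout liver, and 2.33 in wild-type and 1.13 in knockout WAT. Its level in WAT was thus above liver in both genotypes but lower in the knockout pool, a log2 ratio of -1.04, while its homologue Ndufa4 had 0.43. Cox4i2 read 0.195, 0.209, 0.527 and 0.438 units, a ratio of -0.27 in WAT, beside 0.36 for Cox4i1. Cox6b2, an isoform of testis, read 0.261, 0.339, 0.501 and 0.606 units, and was the highest member in liver at 0.38, with 0.28 in WAT. Each of these 3 rests on 1 probe. Pericyte genes, a list chosen after these values were seen because both isoforms are known from vessel-associated cells, had a median of -0.40 in WAT, with 8 of 8 below 0, and 0.05 in liver. Hypoxia target genes, also chosen afterwards, had medians of 0.15 in WAT and 0.11 in liver. The part of either in the 2 ratios was not tested.

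The isoforms left out of the member list had larger differences in WAT than any measured member. Cox6a2 read 0.0475 units in wild-type and 0.112 in knockout liver, and 0.0816 in wild-type and 1.07 in knockout WAT, a log2 ratio of 3.71 in WAT beside 0.35 for Cox6a1. Cox7a1 read 2.34, 2.44, 7.58 and 22.6 units, a ratio of 1.57 beside 0.39 for Cox7a2. Cox8b read 0.0273, 0.0237, 22.8 and 63.0 units, a ratio of 1.47 beside 0.42 for Cox8a. For each of the 3, knockout WAT was the highest array. They stand beside the muscle and thermogenic marker values given above, with which they share the tissue.

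Complex V, the ATP synthase, was measured by 17 members, among them the non-structural Atp5s and Atp5sl. All were above 0 in WAT, with a median of 0.37 and 8 at least 1.3-fold higher. The catalytic part F1 had Atp5a1 (alpha) at 63.98 units in wild-type and 53.8 in knockout liver, and 44.6 in wild-type and 62.0 in knockout WAT, a ratio of 0.48 in WAT. Atp5b (beta), which carries the catalytic sites, read 113.0, 101.5, 94.6 and 113.8 units, a ratio of 0.27. For both, wild-type WAT was the lowest of the 4 arrays in this scaling, on which the order of the wild-type tissues depends. For Atp5b its distance from knockout liver was smaller than the model error of a ratio. Atp5d (delta) had 0.46, and the median of the 5 F1 members was 0.35, with 2 at least 1.3-fold higher.

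The membrane ring of ATP synthase is built of subunit c, encoded by 3 genes with the same mature protein. Of these Atp5g1 had 0.09 in WAT, Atp5g3 0.21 and Atp5g2 0.38, and Atp5g1 was the lowest member of complex V. The stalk and membrane subunits had a median of 0.41, with 5 of 7 at least 1.3-fold higher. Atp5j, coupling factor 6, had the highest mean ratio of the complex in WAT at 0.72, but its probes disagreed in size. The bright probe at chr16:84828153-84828212 (mm9) gave 0.17 and a dim one at chr16:84834389-84834448 gave 1.26, and in liver they gave -0.28 and -0.48. With the brightest probe alone Atp5j was therefore among the lower members. Atp5j2 had 0.48 and Atp5h had 0.41. Atp5k had 0.29, and 2 of its 3 probes carry a position on chromosome Y in the annotation, so signal from a near-identical copy cannot be told apart there. In liver all 17 members of complex V were below 0, with a median of -0.19, from -0.02 for Atp5s to -0.45 for Atp5sl. Neither of these is a structural subunit, and the structural members ran from -0.06 for Atp5g2 to -0.38 for Atp5j.

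**Figure D2:**
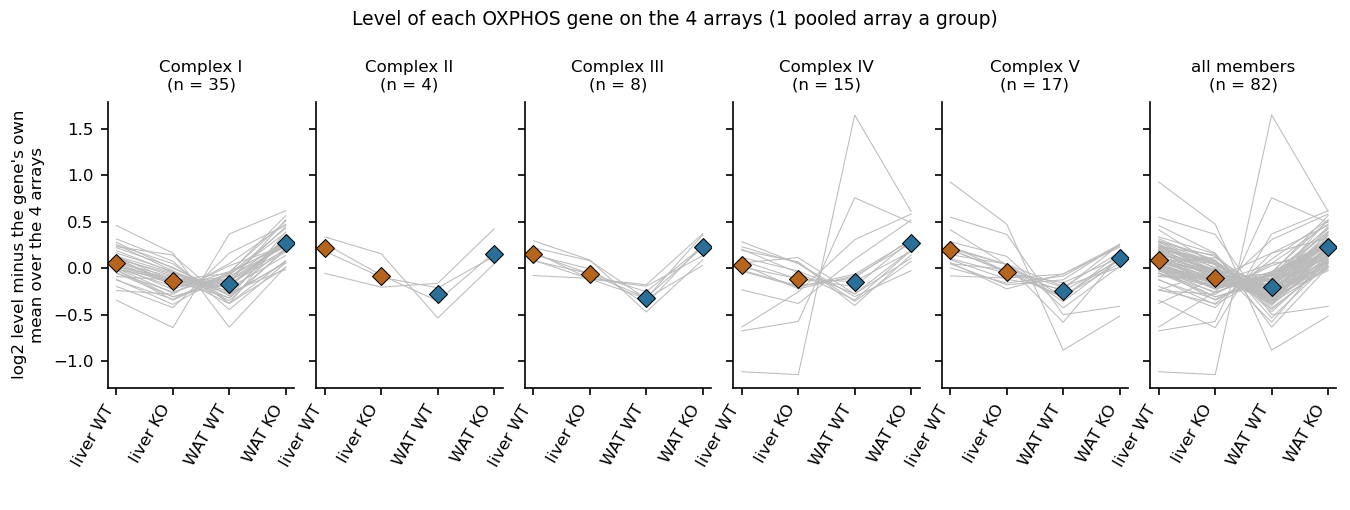
Log2 level of each member minus its own mean over the 4 arrays (vertical axis; grey lines, 1 per gene; diamonds, median) by array and complex. In each complex, in the main setting, the median is lower in knockout than in wild-type liver and higher in knockout than in wild-type WAT, and the 2 lines that peak in wild-type WAT in complex IV are Ndufa4l2 and Cox4i2.

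The comparison of tissues within a genotype asks how adipose and liver levels of the same gene relate. In wild type, WAT was below liver for 67 of 82 members (48% of all genes), with a median log2 ratio of WAT over liver of -0.31 against 0.04 over all 15305 measured genes. At least 1.3-fold lower in WAT were 33 members (30.1% of all genes) and 5 at least 1.3-fold higher (34.4%). At 2-fold, 3 were lower (15.6%) and 2 higher (18.1%). Other genes at the members' level were further below, with a median of -0.40 and 52.2% at least 1.3-fold lower and 15.1% higher over 536 genes. In the knockout pools, WAT was above liver for 70 of 82 members (57.6% of all genes) and below for 12 (42.4%), with a median of 0.33 against 0.14 over all genes. There 37 members were at least 1.3-fold higher in WAT (37.2% of all genes) and 2 at least 1.3-fold lower (25.8%), with 3 at least 2-fold higher (17.7%) and 0 lower (13.7%). The 448 other genes at that level had a median of -0.11, with 21.7% at least 1.3-fold higher and 31.9% lower. The count of 33 lower in wild type and that of 37 higher in knockout were shares of the 82 members near or somewhat above the background. From below 0 in wild type to above 0 in knockout went 55 members, where 10.7% of all genes did. The sign in wild type depends on the scaling: under quantile normalization the median was 0.29 and under cyclic loess 0.15, so no order of the 2 wild-type tissues can be read from it. In the knockout pools the median stayed above 0 in every setting run, between 0.30 and 0.57.

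Among single members in wild type, WAT over liver was highest for Ndufa4l2 at 2.77, Cox4i2 at 1.43, Cox6b2 at 0.94 and Ndufb3 at 0.71. In the knockout pools the same genes had 1.76, 1.07, 0.84 and 1.26. Lowest in wild type were Atp5sl at -1.81, Ndufa6 at -1.09, Atp5g1 at -1.05 and Atp5j at -0.996 (-0.73 with its bright probe alone). Atp5sl read 9.58 units in wild-type and 6.997 in knockout liver, and 2.73 in wild-type and 3.52 in knockout WAT. Ndufa6 read 32.6, 26.6, 15.3 and 23.98 units, and its distance between the tissues was far smaller in knockout, at -0.15. The value of Atp5g1 rests on 1 of its 2 probes: the probe at chr11:95934315-95934374 (mm9) gave -2.22 and that at chr11:95930317-95930376 gave 0.12. The ordering of members by WAT over liver was shared between genotypes, which use different arrays, with a Pearson r of 0.87 and a Spearman rho of 0.86 across 82 genes, as a description of genes that share the array design and each array's scaling.

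**Figure D3:**
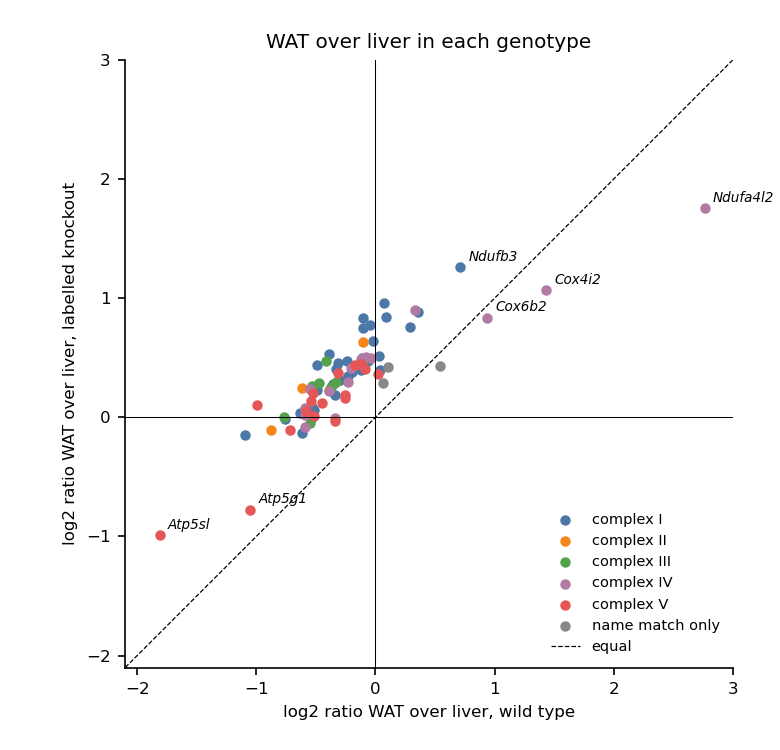
Log2 ratio of WAT over liver in wild type (horizontal axis) and in labelled knockout (vertical axis), 1 point per measured member, coloured by complex, with the dashed line marking equal ratios. Of 82 points 78 lie above the line, and Ndufa4l2, Cox4i2, Cox6b2 and Cox4nb are the 4 that do not.

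Set per gene, the ratio in WAT minus the ratio in liver had a median of 0.61 over the members, against 0.05 over 14896 genes measured in both tissues. It was at least 1.3-fold (0.38 on the log2 scale) for 71 members, where 20.7% of all genes reached it. Below 0 in liver and above 0 in WAT were 76 of 82 members, where 32.6% of all genes were. That share is over all genes, with no matching for level. By complex, the medians of this difference were 0.62 for complex I, 0.75 for II, 0.69 for III, 0.57 for IV and 0.57 for V. The mean over probes was widest for Atp5j at 1.097, but its bright probe alone gave 0.45, below the members' median, and its dim probe 1.74. The next widest were Ndufa6 at 0.95, Ndufs7 at 0.94 and Ndufs8 at 0.93, and Ndufa4l2 was the most negative at -1.01. Across the 82 members the liver ratio did not order the WAT ratio, with a Pearson r of -0.29 and a Spearman rho of -0.14, and r of -0.15 without Ndufa4l2, Cox4i2 and Cox6b2.

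The subunits of the same complexes that are encoded in mitochondrial DNA had ratios of the same sign as the nuclear members in both tissues, with 1 exception. All 13 were below 0 in liver, with a median of -0.24, and 12 of 13 were above 0 in WAT, with a median of 0.30 and 3 at least 1.3-fold higher. The exception was ND6 in WAT at -0.42, the only one of these genes on the light strand, whereas ND1 was highest at 0.61. ND6 was also by far the dimmest of them, with a log2 level of -1.83 in wild-type WAT, where ND1, the next, had 4.10. Assembly factors of the complexes had medians of -0.13 in liver and 0.35 in WAT, where all 44 measured genes were above 0 and 19 at least 1.3-fold higher. Ndufaf4, which helps build complex I, was highest at 0.67, and Cox18 was lowest at 0.01. Mitochondrial ribosomal proteins, which translate the mitochondrial subunits, had medians of -0.08 and 0.31, with 73 of 75 above 0 in WAT. Cytosolic ribosomal proteins, a list added after the values were seen, had medians of -0.04 and 0.12.

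Electron carriers and steps that feed the chain had larger median ratios in WAT than the members. Electron carriers and coenzyme Q genes had a median of 0.56 in WAT, with 12 of 17 at least 1.3-fold higher, and -0.21 in liver. Coq8a, an atypical kinase of coenzyme Q synthesis, had the widest pair of values on the list, with -1.65 in liver and 1.55 in WAT. Cyc1, cytochrome c1, is a subunit of complex III that the name pattern does not cover, and had 0.60 in WAT. Cycs, cytochrome c, had 0.41. Citric acid cycle genes had a median of 0.64, with 12 of 13 at least 1.3-fold higher. Genes of the pyruvate dehydrogenase complex and its kinases and phosphatases had a median of 0.67, with Pdk2 at 1.27 and Pdk3 at -0.83. Mitochondrial fatty acid oxidation had 0.80, with 12 of 14 at least 1.3-fold higher, from Cpt1b, the carnitine palmitoyltransferase of muscle and brown fat, at 2.10 down to Cpt1a, the liver form, at -0.46. Medians of these last 3 lists in liver were -0.12, -0.23 and -0.21.

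Genes for the export of ATP differed less, with medians of -0.09 in liver and 0.21 in WAT over 8 measured genes. Slc25a5, an ADP/ATP carrier, had 0.56 in WAT, and Atpif1, the inhibitor of ATP synthase, had -0.44. Ckmt2, the muscle form of mitochondrial creatine kinase, was well above background only in knockout WAT. Regulators of mitochondrial gene expression had a median of 0.33 in WAT, with 7 of 17 at least 1.3-fold higher, and -0.14 in liver. Ppargc1a, the coactivator PGC-1alpha, had 1.35 and Perm1, a muscle regulator of oxidative genes, had 1.28. Esrrg and Esrra, the oestrogen-related receptors, had 0.96 and 0.52, and Ppargc1b, Ppara and Tfb2m had 0.70, 0.70 and 0.635. Of the 17 regulators 13 were above 0 in WAT and 4 below. The lower ones were Pprc1 at -0.34, Gabpb1 at -0.22, Esrrb at -0.12 and Ppard at -0.04. Dim in wild-type WAT were Perm1, Esrrg, Esrrb and Pprc1, with log2 levels of -5.00, -4.94, -4.38 and -3.72. Of the factors whose motifs were searched at the promoters, Esrra was thus past 1.3-fold, and Nrf1 had 0.03, Yy1 0.05, Sp1 0.13 and Gabpa 0.27 in WAT. In liver Esrrg had -0.82.

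**Figure D4:**
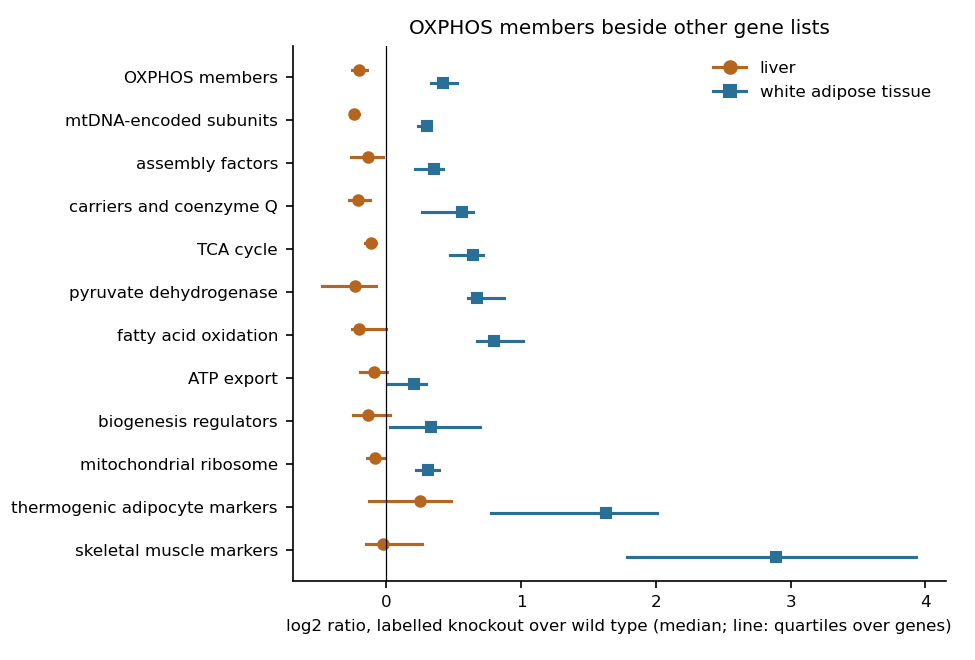
Median log2 ratio of labelled knockout over wild type (horizontal axis; lines, quartiles over genes) of the members and of 11 other gene lists in liver (circles) and WAT (squares). The members' median of 0.42 in WAT lies below those of the citric acid cycle (0.64) and fatty acid oxidation (0.80) and far below those of thermogenic (1.63) and skeletal muscle (2.89) markers.

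Markers of other cell types differed as follows in the WAT pair. Macrophage markers had a median of -0.76, with 12 of 14 at least 1.3-fold lower, endothelial markers -0.45, with 7 of 10 lower, and erythroid markers -0.26. Hepatocyte markers, all 25 of which were above background in WAT, had a median of -1.002, with a summed level of 172.4 units in wild-type and 226.8 in knockout WAT against 3567 in wild-type liver. Cyp2e1 and Trf made up 138.0 of these units in wild-type and 211.7 in knockout WAT, and the other 23 markers summed to 34.4 and 15.1 units. Secretory epithelial markers had a median of 0.52, with 3 of 11 at least 2-fold higher, and their summed level was 1.33 units in wild-type and 6.98 in knockout WAT. Wfdc2, a secreted protein of epithelia, had a log2 ratio of 6.87, Cldn3, a claudin of tight junctions, 4.58 and Krt18, a keratin, 2.17. Cell division genes had a median of 0.04. In the liver pair, macrophage, endothelial, erythroid and secretory epithelial markers had medians of 0.16, -0.04, -0.77 and -0.02, skeletal muscle markers -0.03, thermogenic markers 0.25 and adipocyte markers -0.18. The part of any of these in the members' values was not tested.

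Among the processing settings, direction held in WAT and size did not. The members' median in WAT lay between 0.27 and 0.43 in every setting run, while the count at least 1.3-fold higher went from 49 to 17 under quantile normalization and 24 under cyclic loess. Under quantile normalization the members' median in liver was -0.04, against -0.02 over all genes, and 25 of 82 members were above 0 there in place of 5.

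**Figure D5:**
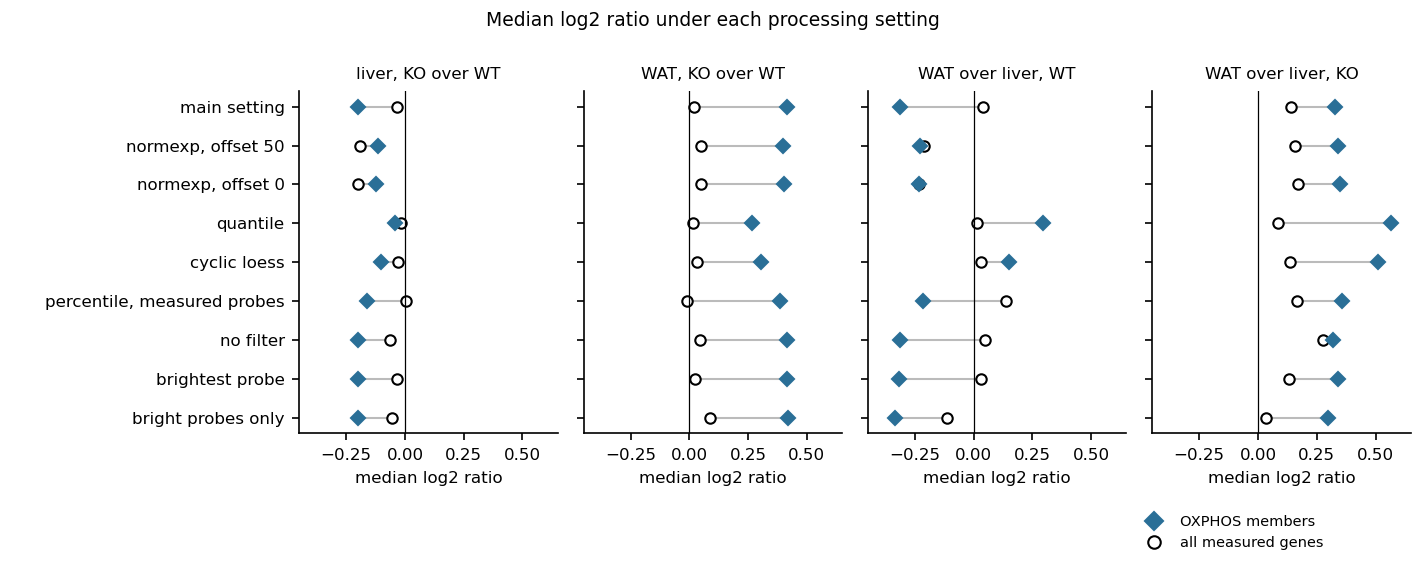
Median log2 ratio (horizontal axis) of the members (diamonds) and of all measured genes (open circles) in 4 comparisons under 9 processing settings. In WAT the members lie above all genes in each setting shown, and in liver they lie below in 7 of the 9. These settings are not independent, since the percentile over measured probes only shifts each array and repeats the main difference. In liver, members minus all genes was -0.166 in the main setting, 0.073 (offset 50) and 0.079 (offset 0) with normexp, -0.026 under quantile normalization and -0.074 under cyclic loess. In the wild-type tissue comparison the members' sign turns under quantile normalization and cyclic loess.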

How the data were processed

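The 4 groups of 1 array each were compared. Per the file headers, the deposited scanner files hold spot intensity values from Agilent Feature Extraction 11.0.1.1, with probe positions on mm9. The processed signal is background-corrected and not normalized between arrays. The authors' table of values is that intensity on a linear scale as a ratio to 1 constant per array (1470.4, 1764.5, 1690.0 and 1613.1, with column medians of 0.0737, 0.0751, 0.0876 and 0.0875 for wild-type liver, knockout liver, wild-type WAT and knockout WAT), with no centring of genes. These constants are nearly the 75th percentiles used here (1470.4, 1764.3, 1689.4 and 1613.0 in the same order). The authors' table served as an alternative, but it hardly differs from the main setting.

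Each deposited processed signal was divided by the 75th percentile of its array and taken to log2, with Python 3.11.15 and pandas 2.3.3. Outlier spots (79 to 110 per array, 0 of them on member probes) were left out, spots of a probe averaged, and a probe was used where more than a 0.5 share of spots had the well-above-background mark in both groups. A gene's ratio is the mean over its probes. Names came from the files for members, and otherwise from RefSeq accessions, symbols or synonyms (27234, 3576 and 565 probes, with 8054 left as named in the file and out of the background). A further 6 genes whose later symbols fit the pattern were not members.

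No test was made with 1 array a group, so a shift is described by counts and medians beside all measured genes. The calculation was checked on simulated arrays over 19667 genes in liver and 21679 in WAT, where a member shift of 0.4 came back as 0.40 and 0.38. Each simulated knockout array was the wild-type array with planted shifts and noise. Differences in scaling, background or detection between real arrays were therefore not covered. Alternatives were run with limma 3.58.1 in R 4.3.3. Genes were named by rule: the 4 highest and lowest ratios per complex and tissue, the extremes of WAT over liver, isoform sets, members with disagreeing or dim probes, and, of other lists, some of the extremes. Ckm, Tnni1, Ckmt2, Cyc1, Cycs, Esrra, Gabpa, Yy1, Sp1 and Ndufb4, outside it, were chosen after their values were seen. Members and lists were chosen with earlier results of these data known. Promoters came from RefSeq, by symbol.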

Additional observations from a re-analysis of the deposited data

Results flagged for a closer look

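The ratio of knockout over wild type pointed in opposite directions in the 2 tissues for the members as a whole and for each complex, and the difference was not tested, since each group is 1 pooled array. Per gene, the log2 ratio in WAT minus that in liver had a median of 0.61 over all members. It was 0.62 for complex I, 0.75 for complex II, 0.69 for complex III, 0.57 for complex IV and 0.57 for complex V. The same difference over all genes measured in both tissues had a median of 0.05 in the main setting and of 0.24 with normexp, offset 50, where the members had 0.52, and genes at least 1.3-fold higher made up 52.1% and 79.9% of those past that fold.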

How the results depend on the processing

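No paired analysis was possible because each group is 1 array with no replicate number. The 12 alternatives, of which 2 were chosen after seeing the data, kept the direction of every KO over WT median except 1. Some of them could hardly turn a direction. The authors' table has nearly the same scaling as the main setting, keeping outlier spots changed no member, and others only left members out. Medians that turned: in liver, complex IV was 0.013 under quantile normalization, and for WAT over liver in wild type the members had 0.29 under quantile normalization (complexes I to V 0.40, 0.12, 0.19, 0.45 and 0.21) and 0.15 under cyclic loess (I 0.24, III 0.029, IV 0.28, V 0.026). For the WAT ratio minus the liver ratio, quantile normalization gave 0.28 over all members, 0.39 for complex II, 0.35 for III and 0.18 for IV, and cyclic loess 0.25 for IV. Their causes were not tested.

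Counts moved as follows. Under quantile normalization 17 members were at least 1.3-fold higher in WAT and 0 lower in liver, for WAT over liver in wild type 34 were higher, 5 lower and 1 at least 2-fold lower, and in knockout 60 were higher and 8 at least 2-fold. Under cyclic loess these were 24 in WAT, 20, 7 and 1 in wild type, and 56 and 8 in knockout. Under either normexp setting 2 were lower in liver and 0 at least 2-fold lower in WAT, and with offset 50 the tissue comparison in wild type had 1 at least 2-fold higher and 1 lower, with 37.1% of genes past 1.3-fold on the higher side against 53.3%. With the percentile over measured probes 1 was higher in liver, and in wild type 8 were higher and 1 at least 2-fold lower. Without the filter 2 were lower in WAT, and with the brightest probe 1 was at least 2-fold lower in WAT than in liver in knockout. Without Atp5s, Atp5sl, Cox7a2l, Ndufa4l2 and the testis isoforms (77 members left), 0 were lower in liver or in WAT (0 at 2-fold), 3 were higher in wild type (1 at 2-fold) and 1 lower in knockout, since Atp5sl and Ndufa4l2 were among those left out. With only probes above the 75th percentile, added later, 0 were lower in WAT (0 at 2-fold), 2 higher in wild type (0 at 2-fold) and 1 at least 2-fold higher in knockout, with 78 members left. Of single named genes, 30 of 1128 values moved by more than the SD between probes and 0 of those past 1.3-fold turned.

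Each group is 1 pool, so the spread between animals is unknown and the errors given cover the array alone. Signal over background limits Cox4i2, Cox6b2, Atp5s and the dim probes of Atp5j and Ndufb5.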

Other observations

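Some genes of the same complexes carry older names in the array annotation and so lay outside the member list. Atp5md, a membrane subunit of ATP synthase listed as Usmg5, had log2 ratios of knockout over wild type of -0.16 in liver and 0.42 in WAT. Atp5mpl, another small subunit of that enzyme, had -0.09 and 0.37, and Ndufa11b, a copy of a complex I gene, had values near 0 in liver and of 0.30 in WAT. Ndufb1, an accessory subunit of complex I, had -0.03 and 0.05. The complex II assembly factors Sdhaf3 and Sdhaf4 had -0.12 and -0.29 in liver and 0.37 and 0.17 in WAT. In WAT all 6 were above 0 and in liver all 6 were below 0, but the members' median model error of 0.20 was exceeded in liver by Sdhaf4 alone, and in WAT not by Ndufb1 and Sdhaf4.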
